A study of Homo sapiens with 13 samples.

Results

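The clustered protocadherins are cell-surface cadherins encoded by 3 gene clusters that lie side by side on the plus strand of human chromosome 5. Members were chosen by symbol: protein-coding genes named PCDHA, PCDHB or PCDHG with a number, PCDHGA, PCDHGB, PCDHGC or PCDHAC, present in both deposited count tables. No measured value entered that choice beyond presence in the tables, but the family and both culture numbers were put forward with results of these data known, so every count of members below is a description. The rule gave 53 of 60500 genes in the doxycycline table and 53 of 60554 in the FGF2 table: 15 in the alpha cluster, 16 in the beta cluster and 22 in the gamma cluster. By promoter type they were 13 alpha, 16 beta, 12 gamma A and 7 gamma B members, and 5 C-type members (PCDHAC1, PCDHAC2, PCDHGC3, PCDHGC4 and PCDHGC5), and 5 pseudogenes of the family were outside the rule. All 53 had counts in both tables.

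The cells were derived from H9, an established human embryonic stem cell line, and carried NEUROG2, a proneural transcription factor whose forced expression turns stem cells into excitatory neurons, under doxycycline control. In the doxycycline set, 1 library each came from cells at day 0, cells at day 5 and at day 11 with 1 µg/ml doxycycline throughout, and cells at day 5 and at day 11 without it. In the FGF2 set, all cells had doxycycline for their first 6 days, and the 4 groups of 2 libraries were day 6 with 20 µg/ml FGF2 (a growth factor) for 6 days, day 6 control, day 12 with FGF2 for the last 6 days, and day 12 control. Cultures past day 0 had E8 stem cell medium for 2 days and 3N neural medium afterwards, so at day 12 doxycycline had been absent for 6 days. The libraries of each FGF2-set group are titled hES-N2G1 and hES-N2G2. The labels do not say whether these are clones, lines or separate cultures, and their source field reads hES-N1 for all, so p-values measure only the spread between these libraries, which may be technical. Each day-12 control description counts 6 days of growth and then lists 6 more, and the day-12 title was followed.

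Each clustered protocadherin gene has its own promoter and its own large first exon, which encodes the extracellular cadherin repeats, the membrane span and, in the alpha and gamma clusters, part of the tail. Alpha and gamma first exons are spliced to constant exons shared by their cluster, whereas beta genes have no constant exons. In neurons the alpha, beta and gamma A and B promoters are known to be chosen in a stochastic way that differs between single cells, through DNA methylation, the insulator protein CTCF and cohesin, while the C-type promoters are used more uniformly. The proteins bind like to like between cells and are known for self-avoidance and for spacing of neurites, and bulk RNA averages the choices of many cells.

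Many promoters of a cluster share a short word, so 5 are shown, for the members on which the results below turn. They were read from RefSeq on GRCh38.p14, plus strand, 250 bases before to 50 after each gene's start, and the capitals mark the 8 letters that many members of one cluster share. The windows are chr5:140855647-140855946 for PCDHA10, chr5:141182137-141182436 for PCDHB16, chr5:141407771-141408070 for PCDHGB6, chr5:141475716-141476015 for PCDHGC3 and chr5:141484780-141485079 for PCDHGC4.
PCDHA10: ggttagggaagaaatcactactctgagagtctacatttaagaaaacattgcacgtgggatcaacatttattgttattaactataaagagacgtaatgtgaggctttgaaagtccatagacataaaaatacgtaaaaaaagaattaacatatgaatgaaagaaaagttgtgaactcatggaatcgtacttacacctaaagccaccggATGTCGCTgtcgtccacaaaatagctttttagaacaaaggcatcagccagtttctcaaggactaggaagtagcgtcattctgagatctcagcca
PCDHB16: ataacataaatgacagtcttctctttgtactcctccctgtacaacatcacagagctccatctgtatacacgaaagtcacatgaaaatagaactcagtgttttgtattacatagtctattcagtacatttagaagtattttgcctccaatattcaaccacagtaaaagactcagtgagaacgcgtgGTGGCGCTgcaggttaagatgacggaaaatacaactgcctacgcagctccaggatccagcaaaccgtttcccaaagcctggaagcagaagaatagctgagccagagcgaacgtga
PCDHGB6: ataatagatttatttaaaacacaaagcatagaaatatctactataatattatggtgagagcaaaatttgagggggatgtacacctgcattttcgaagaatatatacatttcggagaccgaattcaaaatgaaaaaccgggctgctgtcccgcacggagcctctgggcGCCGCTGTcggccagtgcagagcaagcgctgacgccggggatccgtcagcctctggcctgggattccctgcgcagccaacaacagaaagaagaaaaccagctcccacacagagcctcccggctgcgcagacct
PCDHGC3: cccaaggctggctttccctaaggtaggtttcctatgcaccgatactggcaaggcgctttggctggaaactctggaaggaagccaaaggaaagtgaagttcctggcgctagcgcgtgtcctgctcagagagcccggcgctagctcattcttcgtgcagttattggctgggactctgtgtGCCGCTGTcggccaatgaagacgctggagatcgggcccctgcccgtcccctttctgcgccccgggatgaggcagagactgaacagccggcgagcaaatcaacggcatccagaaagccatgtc
PCDHGC4: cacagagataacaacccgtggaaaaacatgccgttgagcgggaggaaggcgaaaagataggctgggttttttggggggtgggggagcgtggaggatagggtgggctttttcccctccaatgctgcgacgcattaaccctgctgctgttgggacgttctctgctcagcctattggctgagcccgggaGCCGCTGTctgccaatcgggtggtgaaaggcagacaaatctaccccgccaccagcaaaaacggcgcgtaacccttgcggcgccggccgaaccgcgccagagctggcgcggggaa

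All 3 capitalised words hold CGCT, the core letters of a conserved element known in many, not all, of these promoters. A word match alone does not show that a given promoter, such as that of PCDHGC4, holds the element. A promoter was matched for 47 of 53 members. On either strand, ATGTCGCT occurred in 9 of 11 alpha promoters, in 0 of 14 beta and 0 of 18 gamma A and B promoters, and in 0.234% of the 35116 promoters of the same length in the table. GTGGCGCT occurred in 13 of 14 beta promoters, in 0 of 11 alpha and 0 of 18 gamma A and B promoters, and in 1.15% of all promoters. GCCGCTGT occurred in 9 of 18 gamma A and B promoters and in 2 of 4 C-type promoters (PCDHGC3 and PCDHGC4), against 1.63% of all. The words were picked by reading these sequences, so the shares are a description. They began 42 to 85, 1 to 83 and 42 to 97 bases before the start in the alpha, beta and gamma promoters that held them. CGCT alone was in 70% of all promoters, so its presence sets no gene apart. A match is not a measured binding site.

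Shared constant exons and similar first exons limit how far a count belongs to 1 member. Of the 50-base windows along each member's annotated transcripts, the length of these single-end reads, the median share found in no other gene was 40.6% for alpha, 80.1% for beta, 60.6% for gamma A, 48.7% for gamma B and 57.4% for C-type members. The lowest was 28.9%, for PCDHGB4, whose exons overlap those of PCDHGA8 in GENCODE 29. Reads in constant exons were not credited to every member: PCDHA13 had 0.04 to 1.05 CPM (counts per 1000000, scaled by TMM) over all 13 libraries, while its neighbour PCDHA12, with the same constant exons, had 2.36 to 24.2 CPM. The library kit does not mark strand, so reads from antisense transcripts cannot be told apart. The 2 count tables list different numbers of genes and were made in separate runs, and levels are not compared between them. Fewer cells of a type and less RNA per cell cannot be told apart in these bulk libraries.

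Total counts ran between 28443657 and 47159475 for doxycycline-set libraries and between 22802501 and 30014661 for FGF2-set libraries, and members took 0.0252% to 0.0766% of them. NEUROG2 stood at 1512 CPM with doxycycline against 1.37 CPM without it at day 5, and at 1026 against 6.45 CPM at day 11. Both pairs go with their labels. In the FGF2 set NEUROG2 was at 49.3 to 54.7 CPM at day 12, with doxycycline withdrawn, against 7544 to 7831 CPM at day 6. The replicate libraries of the day-6 FGF2 group differed most: a chi-square over genes gave 19 per degree of freedom there and 2.87 to 3.26 in the other 3 groups.

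The family's summed level was higher in induced cells, and higher at day 12 than at day 6. In the doxycycline set the summed level of the 53 members was 235.1 CPM at day 0, 823.7 CPM with doxycycline against 273.7 CPM without it at day 5, and 656.4 against 355.6 CPM at day 11. Both doxycycline libraries were above the 3 libraries without doxycycline. In the FGF2 set the sum was 735.2 to 752.9 CPM in the 4 day-12 libraries and 520.7 to 599.8 CPM in the 4 day-6 libraries, and the day groups did not overlap. The number of members at 1 CPM or more ran the other way in the doxycycline set: 43 at day 0, 40 with doxycycline against 48 without it at day 5, and 39 against 41 at day 11. In the FGF2 set 36 to 39 members reached 1 CPM at day 12 and 31 to 37 at day 6. The higher day-12 sum was not shared by every subfamily. In the controls the beta sum was 206.9 and 203.3 CPM at day 12, against 214.0 and 210.7 CPM at day 6. The gamma A sum was 9.49 and 12.5 CPM, against 18.1 and 17.4 CPM. The gamma B sum was 289.3 and 281.0 CPM, against 209.4 and 218.7 CPM. The alpha sum was 166.2 and 161.3 CPM, against 105.6 and 110.6 CPM, and the C-type sum 76.0 and 77.0 CPM, against 39.8 and 31.3 CPM.

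A few members carried a large share of the sum in induced cells. In CPM, without regard to gene length, PCDHGB6, a gamma B member, was the highest in the 2 doxycycline libraries. It had 18.9% of the family's sum at day 5 and 17.5% at day 11. In all 8 FGF2-set libraries it was also the highest, with 36.6% to 37.6% at day 12 and 34.1% to 35.6% at day 6. In the 3 libraries without doxycycline PCDHB2, a beta member, was the highest, with 12.4% to 15.8%. Expressed as the number of equally abundant members that would give the same evenness, the family held 32.0 members at day 0, 20.0 with doxycycline against 29.1 without it at day 5, and 19.3 against 28.3 at day 11. The same number was 11.5 to 11.7 at day 12 and 12.5 to 13.6 at day 6 in the FGF2 set.

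**Figure D1:**
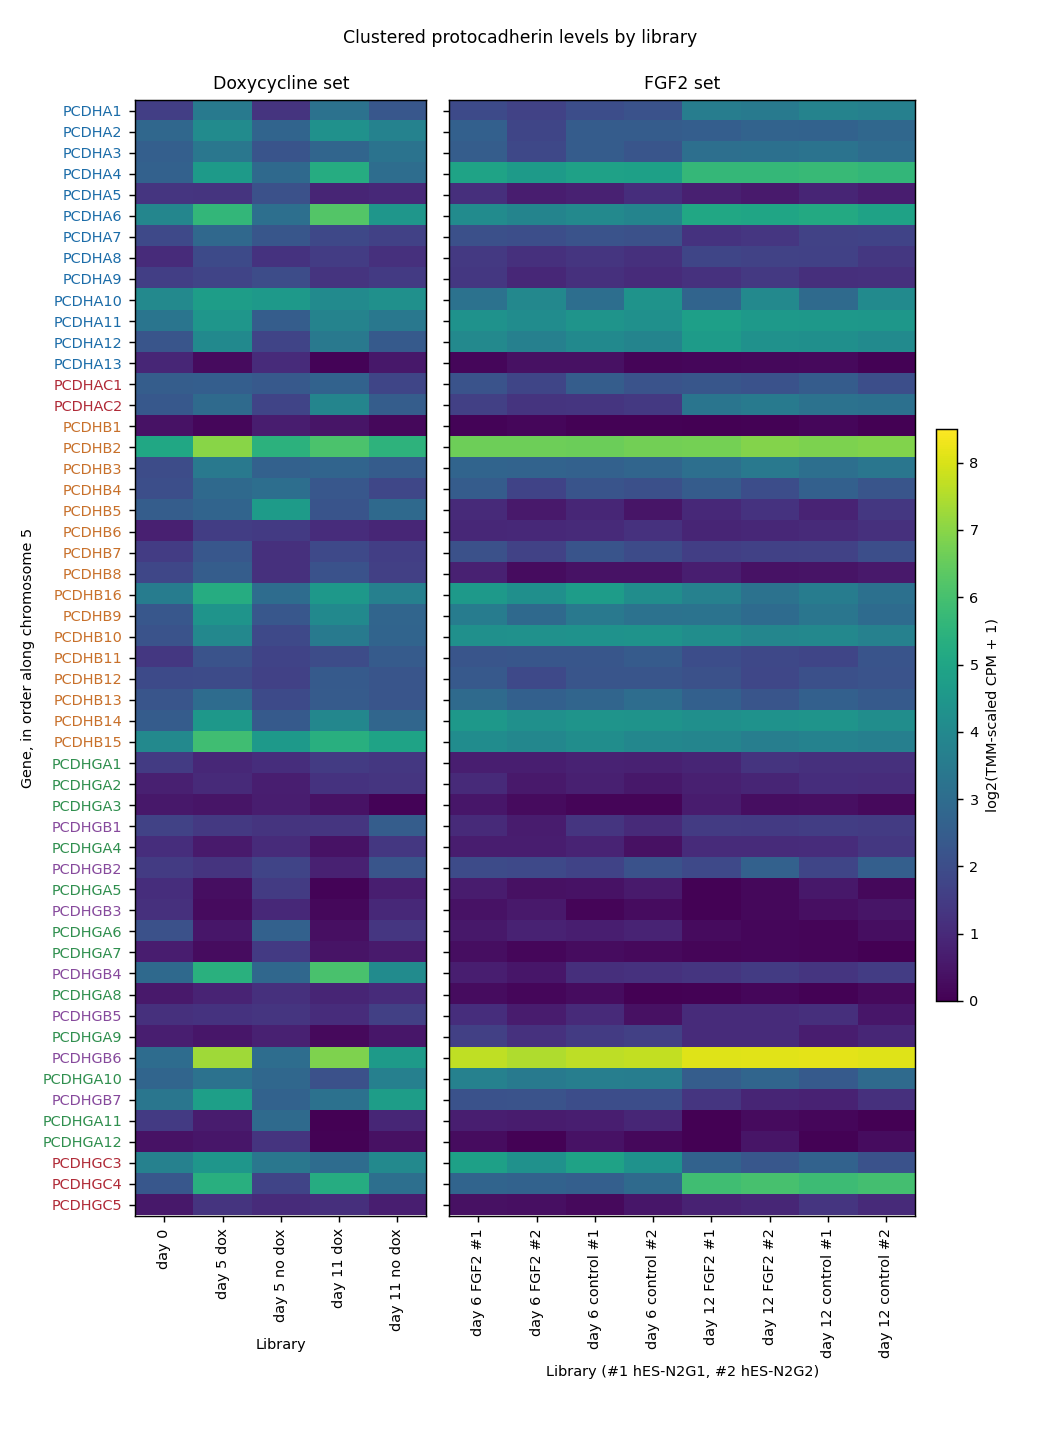
Heat map of log2(TMM-scaled CPM + 1) for the 53 members, down the page in their order along chromosome 5, in the 5 libraries of the doxycycline set and the 8 of the FGF2 set. PCDHGB6 is the brightest row in each induced library, most gamma A rows stay dark, and PCDHGC4 is brighter at day 12 than at day 6.

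Per kilobase of exon that no other gene shares, which allows levels to be set between genes, PCDHGB6 stood at 58.8 to 61.1 CPM per kilobase at day 12 and 38.9 to 45.5 at day 6. PCDHB2 was next, with 30.1 to 34.2 at day 12 and 27.2 to 29.2 at day 6. PCDHGC4 was at 20.2 to 23.2 at day 12 and 1.79 to 2.40 at day 6 on the same scale. PCDHGB6 lay above PCDHB2, and PCDHB2 above PCDHGC4, in all 8 libraries. In the day-5 doxycycline library PCDHB2, at 36.1, lay above PCDHGB6, at 33.9 CPM per kilobase. In the day-11 doxycycline library PCDHGB4, at 26.6, lay above PCDHGB6, at 24.9 CPM per kilobase. PCDHGB6 was thus the highest member of neither doxycycline library on this scale, though the PCDHGB4 value is uncertain because of its exon overlap.

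By subfamily, the gamma B sum was higher with doxycycline on both days and the gamma A sum lower, and the gamma B sum rests on few members. The gamma B sum was 227.7 CPM with doxycycline against 25.1 CPM without it at day 5, and 191.4 against 77.1 CPM at day 11. The gamma A sum was 14.3 against 28.4 CPM at day 5 and 8.80 against 22.3 CPM at day 11. PCDHGB6 and PCDHGB4 alone had 196.5 of the gamma B CPM at day 5 and 179.9 at day 11 with doxycycline. Counted by member, 4 of 6 gamma B members were higher with doxycycline at day 5 (median log2 ratio 1.12) but 4 of 6 were lower at day 11 (median -0.86), where 5 of 6 gamma A members were lower too (median -0.55). The alpha sum was 182.5 against 67.5 CPM at day 5 and 189.0 against 92.1 CPM at day 11, the beta sum 324.9 against 133.5 CPM and 202.7 against 133.8 CPM, and the C-type sum 74.3 against 19.3 CPM and 64.5 against 30.3 CPM.

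**Figure D2:**
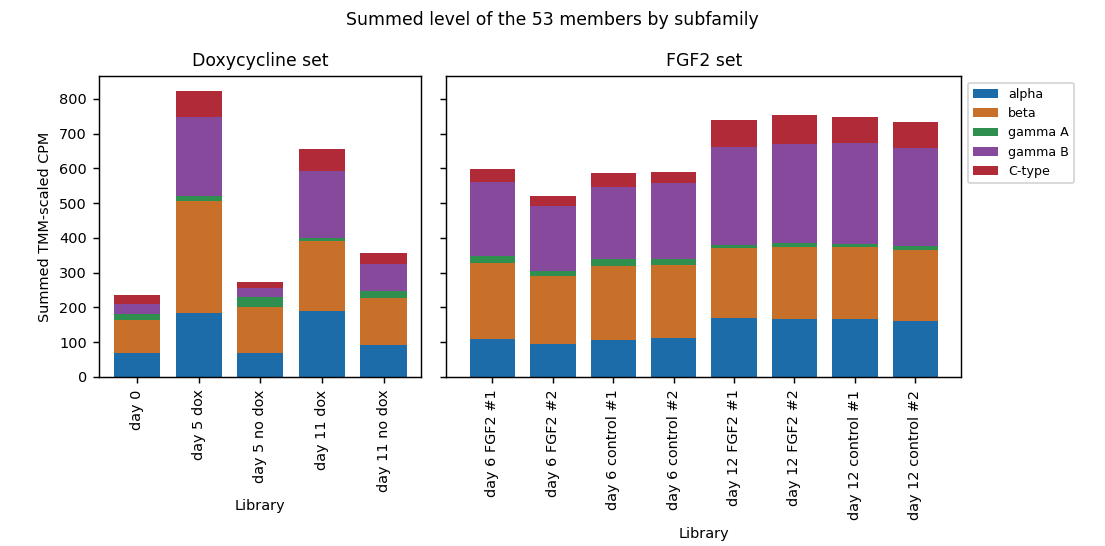
Stacked bars of summed TMM-scaled CPM of the alpha, beta, gamma A, gamma B and C-type members in each of 13 libraries. Totals are 823.7 and 656.4 CPM in the doxycycline libraries and 235.1 to 355.6 CPM in the 3 without it, and the purple gamma B segment is taller in both doxycycline libraries.

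The doxycycline comparison asks what NEUROG2 induction does to the family, with 1 library on each side, so there is no replicate check and no test. A member was counted as different at a 4-fold or larger ratio after adding 1 CPM to both values, among those at 1 CPM or more in either library. At day 5, 13 of 49 such members differed, 11 higher and 2 lower with doxycycline, against 18.8% of 20124 genes (8.46% higher, 10.4% lower). At day 11, 3 of 43 differed, all higher, against 16.8% of 19657 genes (8.30% higher, 8.52% lower). The day-11 count rests on the scaling: it was 0 with library totals, as with the normalized table deposited by the authors, and library totals moved the median log2 ratio of all genes to -0.23, against 0.04 with TMM. The median log2 ratio over members at 1 CPM or more was 0.59 at day 5 and 0.29 at day 11, against -0.01 and 0.04 over all genes.

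PCDHGB6 had 155.7 CPM with doxycycline against 7.24 CPM without it at day 5, a ratio of 21.5 (95% exact binomial interval 18.8 to 24.7, which covers counting error only, as all such intervals here do). At day 11 it had 114.6 against 23.8 CPM, a ratio of 4.82 (4.46 to 5.21). It had the widest ratio of the family at day 5. PCDHGB4, another gamma B member, had 40.8 against 6.19 CPM at day 5 and 65.3 against 16.1 CPM at day 11. Its exons overlap those of PCDHGA8, so these values are uncertain. PCDHGB4 had 1747 and 2139 counts in these doxycycline libraries. In the FGF2 set, counted apart and also given doxycycline for the first 6 days, it had 12 to 54 counts a library. The reason was not tested. PCDHGB7 was high with doxycycline at day 5 alone: 26.5 against 5.36 CPM at day 5 and 7.94 against 25.8 CPM at day 11, so its direction turned between the days.

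Among the C-type members, PCDHGC4 had 40.3 CPM with doxycycline against 2.33 CPM without it at day 5, a ratio of 17.3 (13.7 to 22.2), and 37.3 against 7.57 CPM at day 11, a ratio of 4.93 (4.29 to 5.68). PCDHGC4 is known in mice for its need in neuron survival. PCDHAC2, the alpha C-type member known in mice for the tiling of serotonergic axons, had 6.62 against 2.33 CPM at day 5 and 13.5 against 4.62 CPM at day 11. PCDHGC3 had 21.1 against 9.38 CPM at day 5 and 7.09 against 15.1 CPM at day 11. PCDHGC4 was thus the C-type member furthest apart on both days, while PCDHGC3 lay on different sides of its uninduced library on the 2 days. PCDHAC1 and PCDHGC5 were under 4-fold on both days, as was PCDHAC2.

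Alpha and beta members were mostly higher with doxycycline at day 5, with a ratio above 1 for 10 of 13 and 13 of 15. Their median log2 ratios were 1.17 and 1.13, beside 1.12 for gamma B and -0.60 for gamma A members. Of 13 alpha members at 1 CPM or more, 3 reached 4-fold (PCDHA1, PCDHA6 and PCDHA12), and of 15 beta members, 4 did (PCDHB16, PCDHB9, PCDHB10 and PCDHB14), all higher. PCDHA6 had 48.5 CPM with doxycycline against 7.59 CPM without it at day 5 and 73.0 against 21.3 CPM at day 11. PCDHA4 had 23.7 against 6.51 CPM at day 5 and 37.6 against 7.20 CPM at day 11. With doxycycline both stood higher at day 11 than at day 5, unlike the family's sum. PCDHB2 had 126.5 against 43.2 CPM at day 5 and 67.9 against 44.2 CPM at day 11. PCDHB5 and PCDHB4 were the 2 beta members below their uninduced library at day 5. PCDHB4 had 6.45 CPM with doxycycline against 7.37 CPM without it, and PCDHB5 had 5.66 CPM with doxycycline against 24.3 CPM without it at day 5 and 3.66 against 6.52 CPM at day 11.

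Gamma A members held the lowest sum of the 5 subfamilies in most libraries, and 8 of the 10 that could be counted at day 5 had a ratio below 1. PCDHGA6 had 0.44 CPM with doxycycline against 5.23 CPM without it, and PCDHGA11 had 0.58 against 6.70 CPM, at day 5, which were the 2 members lower by 4-fold. The other libraries without doxycycline were lower than the day-5 one for both. PCDHGA6 had 3.31 CPM at day 0 and 1.55 CPM at day 11, and PCDHGA11 had 1.72 and 0.87 CPM. PCDHGA10, the most abundant gamma A member with doxycycline, had 8.28 against 6.13 CPM at day 5 and 3.27 against 12.2 CPM at day 11.

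**Figure D3:**
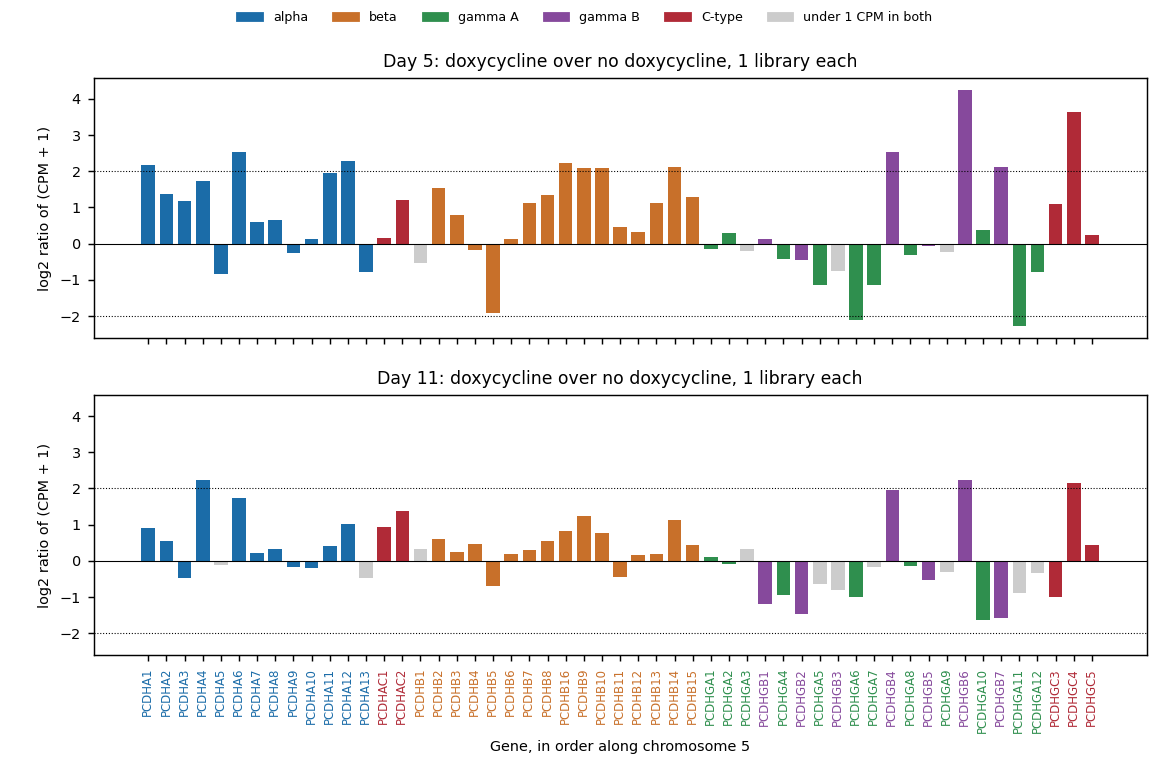
Bars give the log2 ratio of (CPM + 1) with over without doxycycline for each member in its order along chromosome 5, day 5 above day 11, with 1 library on each side, dotted lines at 4-fold and grey bars for members under 1 CPM in both. PCDHGB6 and PCDHGC4 stand out upwards on both days, while most gamma A bars point down.

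Without induction few members reached a 4-fold difference. At day 5 without doxycycline against day 0, 1 of 49 members was 4-fold different, against 0.836% of 19249 genes (0.696% higher, 0.140% lower): PCDHB5, with 24.3 CPM at day 5 and 4.63 CPM at day 0, a ratio of 5.24 (4.46 to 6.18), which was under 4-fold in the authors' normalized values. At day 11 without doxycycline against day 0, 0 of 45 members and 3.97% of 19162 genes (1.94% higher, 2.03% lower) were 4-fold different. Smaller differences leaned upwards there: 34 of 45 members were higher at day 11, with a median log2 ratio of 0.34 against 0.01 over all genes, and PCDHGB6 had 23.8 CPM at day 11 and 7.07 CPM at day 0. At day 11 with doxycycline against day 5 with doxycycline, 0 of 41 members and 1.48% of 18196 genes (0.572% higher, 0.907% lower) were. Within that last comparison 32 of 41 members had the lower value at day 11, with a median log2 ratio of -0.44 against 0.004 over all genes.

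Cell type markers moved with doxycycline, and their part in the family's levels was not tested. The summed level of 9 neuron markers was 13560 CPM with doxycycline against 79.7 CPM without it at day 5 and 17010 against 360.7 CPM at day 11, and 8 of 9 were at least 4-fold higher on both days. The 6 dividing-cell markers summed to 58.7 against 1496 CPM at day 5 and 24.4 against 1704 CPM at day 11, with 6 of 6 lower. Pluripotent markers (7) summed to 609.7 against 5806 CPM and 210.1 against 1926 CPM, with 6 and 5 lower by 4-fold. The 6 mesenchyme markers summed to 22 against 969.2 CPM and 30.3 against 255.5 CPM, and the 7 glia markers to 31.8 against 189.6 CPM and 11.7 against 82.0 CPM. Of mesenchyme markers at 1 CPM or more, 3 of 3 and 3 of 4 were lower by 4-fold. Glia markers were mixed: at day 5, 1 was 4-fold higher and 2 lower of 5. At day 11, 1 of 4 was lower by 4-fold, and their median log2 ratio was 0.75. Over all 13 libraries of both sets, 3 to 6 of the mesenchyme, 5 to 6 of the glia and 3 to 7 of the pluripotent markers had any count. Neural progenitor markers (7) summed to 1146 against 728.4 CPM and 738.7 against 841.9 CPM. Of 6 at 1 CPM or more, 1 was lower by 4-fold at day 5 (median log2 ratio 1.14) and 3 at day 11 (median -2.75).

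The day-12 control cells were compared with the day-6 control cells to see how the family differs after 6 more days without doxycycline. Time and doxycycline withdrawal change together in this comparison and cannot be told apart. After the low-count filter 47 of 53 members were tested in edgeR's quasi-likelihood fit over 20142 genes. At an adjusted p under 0.05, 21 of 47 were called, 11 higher and 10 lower at day 12. That is 44.7% of the tested members, below the 64.0% of all genes called (31.7% higher, 32.3% lower). The members' share lay under the background, so nothing is read from the count, and the values below show which members stood apart.

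Among the C-type members, 3 were called higher and 1 lower. PCDHGC4 had 56.3 and 61.6 CPM in the day-12 controls, against 4.99 and 6.70 CPM in the day-6 controls. PCDHGC3, known in mice for a part in dendrite branching, had 5.43 and 3.46 CPM at day 12, against 28.5 and 19.0 CPM at day 6. Neither pair of groups overlapped, and the 2 genes went opposite ways. The log2 change was 3.33 ± 0.13 (approximate SE, as for all changes from this fit; edgeR adjusted p = 5.25e-12) for PCDHGC4 and -2.41 ± 0.25 (edgeR adjusted p = 5.01e-07) for PCDHGC3. PCDHAC2 had 8.27 and 7.90 CPM at day 12, against 1.504 and 1.674 CPM at day 6, and rose by 2.34 ± 0.20 (edgeR adjusted p = 7.61e-08). PCDHGC5 had 1.46 and 1.02 CPM at day 12, against 0.17 and 0.43 CPM at day 6, and rose by 2.03 ± 0.48 (edgeR adjusted p = 0.00176). PCDHAC1 had 4.54 and 3.12 CPM at day 12, against 4.68 and 3.52 CPM at day 6, and was the 1 C-type member not called.

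Among alpha members 4 of 12 tested were called higher and 1 lower. PCDHA1, the first gene of the cluster, had 13.02 and 11.99 CPM at day 12, against 3.01 and 3.43 CPM at day 6, a log2 change of 1.96 ± 0.16 (edgeR adjusted p = 4.29e-08). PCDHA6 changed by 1.15 ± 0.13, PCDHA3 by 0.89 ± 0.23 and PCDHA4 by 0.85 ± 0.10. PCDHA4 was the most abundant alpha member in CPM, with 51.5 and 48.6 CPM at day 12 against 28.02 and 27.68 CPM at day 6. Per kilobase of unshared exon its day-12 control mean was 4.73 CPM. That lay below PCDHA6 (9.70), PCDHA12 (8.31), PCDHA11 (6.53) and PCDHA1 (5.36). PCDHA7 was lower by -0.59 ± 0.21, a call that was lost without any 1 of its 4 control libraries (edgeR adjusted p = 0.0591 to 0.0954) and with DESeq2 (0.0977).

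Among beta members 2 of 15 tested were called higher and 3 lower. PCDHB16 had 10.8 and 7.81 CPM at day 12, against 25.0 and 17.2 CPM at day 6, a log2 change of -1.18 ± 0.22 (edgeR adjusted p = 2.07e-04). PCDHB10 had 14.6 and 12.4 CPM at day 12, against 19.1 and 19.4 CPM at day 6, and changed by -0.51 ± 0.13. PCDHB2, the most abundant beta member, had 112.1 and 116.7 CPM at day 12, against 95.2 and 102.4 CPM at day 6, and changed by 0.21 ± 0.08. These groups do not overlap, but the PCDHB2 call was lost without any 1 of its 4 control libraries (edgeR adjusted p = 0.0636 to 0.274) and without either day-12 FGF2 library (0.0608 for both). PCDHB3 changed by 0.60 ± 0.17 and was not called without day-6 control replicate 1 (0.0659) or day-12 control replicate 2 (0.078). PCDHB15 changed by -0.36 ± 0.14 and was not called without day-6 control replicate 1 (0.226), day-12 control replicate 1 (0.0551) or day-12 control replicate 2 (0.132), with library totals (0.0671) or with DESeq2 (0.058).

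In the gamma cluster PCDHGB6 rose to 281.2 and 270.3 CPM at day 12, against 200.3 and 209.4 CPM at day 6, a log2 change of 0.43 ± 0.08 (edgeR adjusted p = 2.15e-04), and its groups did not overlap. It was the 1 gamma B member of 6 tested that was called higher, while the median log2 change over the 6 was 0.37. Its near neighbours fell: PCDHGB7 had 0.77 and 1.28 CPM at day 12, against 3.01 and 3.00 CPM at day 6 (log2 change -1.55 ± 0.30), and PCDHGA10 had 4.26 and 6.70 CPM, against 11.6 and 11.2 CPM (-1.06 ± 0.19). PCDHGA9, just before PCDHGB6, changed by -1.36 ± 0.34, so the most abundant member rose between 3 neighbours that fell. Of 9 gamma A members tested, 4 were called lower and 1 higher. PCDHGA6 and PCDHGA11 fell and PCDHGA4 rose at levels of 1.58 CPM or less in every FGF2-set library. The PCDHGA6 call was lost without day-6 control replicate 2 (edgeR adjusted p = 0.0592) or day-12 control replicate 1 (0.0933), and the PCDHGA4 call without day-6 control replicate 2 (0.209) or day-12 control replicate 2 (0.14). The other 15 of the 21 calls stood in each fit that left out 1 of the 8 libraries.

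The day-12 FGF2 and day-6 FGF2 libraries give the same day contrast in libraries that share none with the controls, with FGF2 given in the last and in the first 6 days. Here 23 of 47 members were called, 15 higher and 8 lower at day 12, against 65.5% of all genes (32.6% higher, 32.9% lower). Both contrasts called 17 members in the same direction and 0 in opposite directions, which is 81% of the control calls and 73.9% of the FGF2 calls, against 88.9% and 86.8% over all genes. PCDHGC4 had 58.8 and 64.7 CPM at day 12 with late FGF2, against 5.62 and 5.33 CPM at day 6 with early FGF2, a log2 change of 3.50 ± 0.13 (edgeR adjusted p = 2.38e-12). PCDHGC3 had 5.35 and 3.99 CPM, against 27.5 and 18.7 CPM, a change of -2.32 ± 0.24 (5.33e-07 in edgeR, adjusted). The opposite changes of these 2 C-type members were thus measured in both sets of libraries. PCDHAC2 changed by 2.44 ± 0.19 and PCDHA1 by 2.10 ± 0.16. Of 6 gamma B members tested, 3 were called higher and 1 lower here. PCDHGC5 changed by 1.51 ± 0.49, a call lost without day-6 FGF2 replicate 2 (edgeR adjusted p = 0.0597) or day-12 FGF2 replicate 2 (0.0737). In all, 14 of the 23 calls stood in each fit that left out 1 library.

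**Figure D4:**
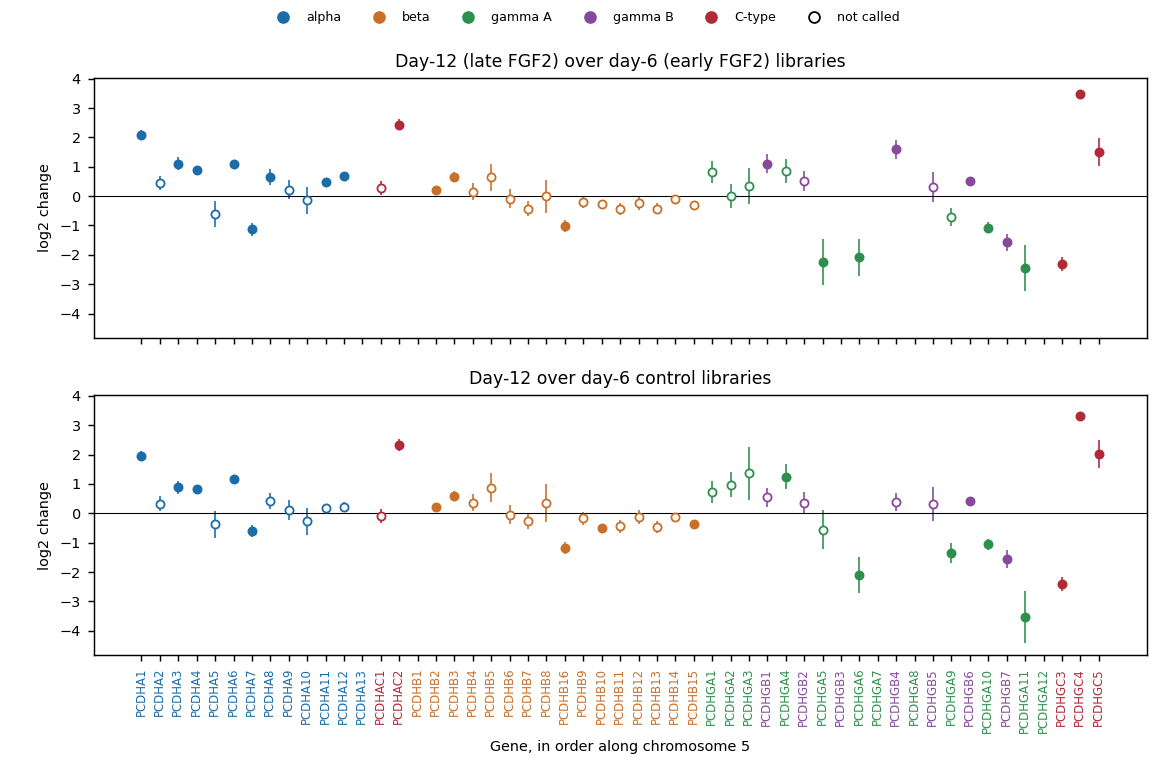
Points give the log2 change from edgeR of each tested member in its order along chromosome 5, bars the approximate SE, filled where called at adjusted p under 0.05: day 12 over day 6 in FGF2-treated libraries above, in control libraries below. PCDHGC4, PCDHAC2 and PCDHA1 are high and PCDHGC3, PCDHGB7 and PCDHB16 low in both panels.

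The same markers moved between the days, and their part in these changes was not tested. Neuron markers summed to 18140 and 18280 CPM in the day-12 controls, against 9191 and 9608 CPM in the day-6 controls, with 7 higher and 1 lower of 9. Dividing-cell markers summed to 8.68 and 10.5 CPM, against 476.1 and 399.5 CPM, with 6 of 6 lower. Mesenchyme markers summed to 6.69 and 6.96 CPM, against 38.3 and 36.2 CPM, with 1 higher and 4 lower of 5. Glia markers (2 higher and 2 lower of 5) summed to 12.6 and 11.9 CPM, against 39.1 and 39.8 CPM, neural progenitor markers (2 higher and 4 lower of 7) to 871.3 and 933.5 CPM, against 1553 and 1550 CPM, and pluripotent markers (0 higher and 3 lower of 3) to 137.5 and 148.8 CPM, against 269.7 and 267.5 CPM.

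FGF2 was the agent added in the FGF2 set, and no member passed the threshold for it. With FGF2 in the last 6 days against control at day 12, edgeR called 0 of 47 members, against 2.17% of all genes (437 genes; 1.63% higher, 0.536% lower). At an unadjusted p under 0.05 in edgeR there were 2 members, PCDHA7 and PCDHA12. That is 4.26% of the tested members, below the 10.7% of all genes, so nothing is read from the count. The smallest adjusted p of a member was 0.29 in edgeR. DESeq2 also called 0. Of the 42 members in the authors' deposited tables none was called by DESeq2, which gave an adjusted p for 17, or by limma. Of all 17705 genes in those tables DESeq2 called 834 and limma 1306 for late FGF2. PCDHA7 had 1.35 and 1.55 CPM with late FGF2, against 2.19 and 2.31 CPM in control (log2 change -0.63 ± 0.23). PCDHA12 had 24.2 and 18.9 CPM with late FGF2, against 17.8 and 15.7 CPM in control (0.37 ± 0.14). Neither gene's groups overlap, yet neither difference holds after adjustment over all genes.

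The most abundant members lay close together under late FGF2. PCDHGB6 had 272.3 and 275.3 CPM with late FGF2, against 281.2 and 270.3 CPM in control, and PCDHB2 had 105.4 and 119.9 CPM, against 112.1 and 116.7 CPM, and both pairs of groups overlap. Over the 20 members at a mean of at least 5 CPM in the FGF2 set, fitted changes ran from -0.22 to 0.37. PCDHA10 had the widest interval of 2 approximate SE, from -1.02 to 0.82, in a fit without a term for the culture number. It had 5.65 CPM with late FGF2 against 6.73 CPM in control in hES-N2G1, and 15.06 against 15.75 CPM in hES-N2G2. Among the other 19 the intervals reached -0.52 (PCDHB13) and 0.65 (PCDHA12).

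With FGF2 in the first 6 days against control at day 6, edgeR called 0 of 47 members, against 0% of all genes, with a smallest adjusted p of 0.927. At an unadjusted p under 0.05 in edgeR there was 1 member, PCDHGB4, 2.13% of those tested against 3.27% of all genes. DESeq2 called 0, as did DESeq2 and limma in the authors' deposited tables, where both called 0 of all 17705 genes for early FGF2. PCDHGB4 had 0.62 and 0.44 CPM with early FGF2, against 1.20 and 1.33 CPM in control (log2 change -1.23 ± 0.36). The day-6 FGF2 replicates differed most, and without replicate 1 that group held replicate 2 alone. The fitted log2 changes were then -0.91 for PCDHA2, -1.498 for PCDHGB4 and -0.19 for PCDHGB6. Each of these members was lower in replicate 2 than in replicate 1. PCDHA2 had 5.06 CPM in replicate 1 and 2.44 CPM in replicate 2, against 4.598 and 4.592 CPM in control. PCDHGB6 had 204.3 and 179.0 CPM, against 200.3 and 209.4 CPM in control. These changes rest on 1 library set against the controls. The late effect minus the early effect was called for 0 of 47 members in edgeR and in DESeq2, against 0.730% of all genes in edgeR (0.645% higher, 0.0844% lower). For this difference 1 member (PCDHGB4) had an unadjusted p under 0.05 in edgeR, 2.13% of those tested against 7.32% of all genes.

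The numbered libraries were compared across the 4 groups by adding the number to the edgeR fit, a comparison chosen after seeing the data. Between hES-N2G2 and hES-N2G1 the fit called 12 of 20142 genes, 0.0596% (0.0348% higher, 0.0248% lower), and 3 of the 12 were clustered protocadherins. The rule names both numbers, so this count is a description and nothing is read from it. The other 9 genes were ZNF558, GDA, NLRP2, LINC01139, LINC00467, AMT, UVRAG, ABCD2 and ZNF354C, named after their values were seen. At an unadjusted p under 0.05 there were 13 of 47 members, 27.7%, and 1812 of 20142 genes, 9%.

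PCDHA10, an alpha member, had 14.8, 19.6, 15.1 and 15.7 CPM in hES-N2G2 and 8.32, 7.43, 5.65 and 6.73 CPM in hES-N2G1, in the day-6 FGF2, day-6 control, day-12 FGF2 and day-12 control groups. The lowest hES-N2G2 library lay above the highest hES-N2G1 library. The fitted log2 difference was 1.21 ± 0.10, and over the alternatives tried PCDHA10 stayed past the threshold, with differences of 1.10 to 1.35. In no day or FGF2 comparison was PCDHA10 called, and its replicates within each group were farther apart than any 2 group means.

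PCDHGC3 had 18.7, 19.0, 3.99 and 3.46 CPM in hES-N2G2 and 27.5, 28.5, 5.35 and 5.43 CPM in hES-N2G1, in the same order of groups, a log2 difference of -0.56 ± 0.09. PCDHB16 had 17.8, 17.2, 8.24 and 7.81 CPM in hES-N2G2 and 23.2, 25.0, 12.3 and 10.8 CPM in hES-N2G1, a log2 difference of -0.49 ± 0.08. Both were lower in hES-N2G2 in all 4 groups, by less than they fell between the days. Both calls were lost without day-6 control replicate 1 (edgeR adjusted p = 0.377 for PCDHGC3 and 0.427 for PCDHB16), without day-6 control replicate 2 (0.346 and 0.414) and in the FGF2 libraries alone (0.638 for both). PCDHGC3 was also not called in the day-12 libraries alone (edgeR adjusted p = 0.216).

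**Figure D5:**
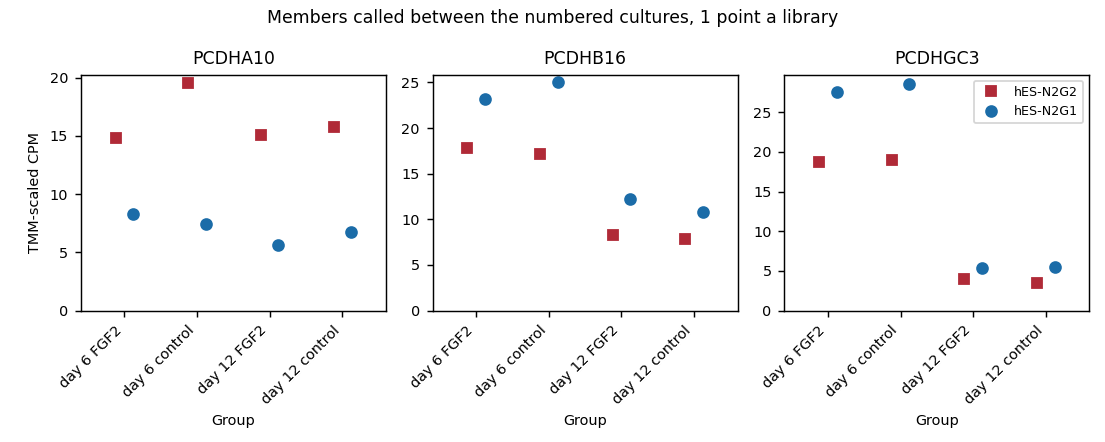
TMM-scaled CPM of PCDHA10, PCDHB16 and PCDHGC3 in the 8 FGF2-set libraries, 1 point a library, squares for hES-N2G2 and circles for hES-N2G1. For PCDHA10 all squares lie at 14.8 CPM or more and all circles at 8.32 CPM or less, while for the other 2 genes the squares lie below the circles within each group.

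Genes that work beside the family were counted in the day-12 over day-6 control contrast, from lists chosen with earlier results known, and their counts stand beside the 64.0% of all genes called in it. The delta protocadherins, single genes outside the clusters, were all called, with 7 that rose and 2 that fell of 9 tested, and a median log2 change of 2.49, against 0.21 over the tested clustered members and -0.005 over all genes. PCDH7 changed by 8.30 ± 0.18, PCDH10 by 4.90 ± 0.12 and PCDH1 by 3.45 ± 0.10, while PCDH8 changed by -1.64 ± 0.08 and PCDH18 by -3.66 ± 0.35. With late FGF2, PCDH11X had 32.6 and 31.7 CPM, against 17.3 and 17.4 CPM in control (0.89 ± 0.16, edgeR adjusted p = 0.00529), and PCDH8 had 23.3 and 21.8 CPM, against 31.5 and 32.7 CPM (-0.51 ± 0.09, edgeR adjusted p = 0.00336). These were the 2 of 9 delta protocadherins that passed the threshold with late FGF2.

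Of 11 genes for CTCF, cohesin and their loaders and releasers, which fold the clusters so that an enhancer meets the chosen promoter, 4 rose and 2 fell, 54.5% of the list. PDS5B, a cohesin regulator, changed by 0.84 ± 0.09, and STAG2, a cohesin subunit, by -0.40 ± 0.10. CTCF itself had 85.0 and 89.1 CPM at day 12, against 96.1 and 93.1 CPM at day 6, and was not called. Of 9 genes for DNA methylation and silencing 3 rose and 2 fell, 55.6%. DNMT3B, the de novo methyltransferase that marks these promoters in mice, had 28.95 and 29.28 CPM at day 12, against 50.9 and 49.4 CPM at day 6 (-0.78 ± 0.09), and SMCHD1, which represses clustered protocadherins in mice, had 109.2 and 102.1 CPM, against 63.7 and 57.6 CPM (0.80 ± 0.12). Of 16 genes for cleavage of the proteins and for their signalling 5 rose and 9 fell, 87.5%. Among those that fell were genes for subunits of gamma-secretase, the protease that releases the intracellular tails: NCSTN changed by -1.09 ± 0.08, PSENEN by -0.77 ± 0.12, APH1B by -0.52 ± 0.10 and APH1A by -0.52 ± 0.09. Of the Wave complex genes, whose complex binds some protocadherin tails, CYFIP2 rose by 1.35 ± 0.07, WASF1 by 1.21 ± 0.09 and ABI2 by 0.94 ± 0.09, while NCKAP1 was not called. PRKCA, a protein kinase C gene, rose by 5.45 ± 0.19.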

How the data were processed

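RNA was measured by sequencing of TruSeq v2 libraries, 50 cycles, single end. Gene counts were deposited by the authors as raw counts; Subread, featureCounts 1.5.0, limma, DESeq2 and GRCh38 are named per the submitters' processing notes, and the GENCODE release, strand and multi-overlap settings are not given in the sources used here. The authors also deposited a normalized signal table (limma voom, genes averaging 5 or more counts, per the file names) and tables of log2 fold changes with adjusted p-values from DESeq2 and limma.

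From the counts, the FGF2 set was fitted in edgeR 4.0.16 (R 4.3.3) with TMM, filterByExpr and 1 mean per group over 8 libraries; glmQLFTest was two-sided, with Benjamini-Hochberg adjustment over 20142 genes and a threshold of 0.05. The approximate SE is the change divided by the square root of its F value. The doxycycline set had no test. Exact binomial (Clopper-Pearson) intervals at 95% cover counting error only. Alternatives were DESeq2 1.42.0, its size factors, library totals, no low-count filter, a replicate block, each library left out, a pseudocount of 0.5 CPM, a minimum of 10 CPM and the authors' normalized values. The script was tested on simulated data. Named were the C-type members, the largest called changes at a mean of 1 CPM or more, the widest doxycycline ratios and the most abundant members. Lengths and overlaps came from GENCODE 29, which may not be the authors' release. A further 16 per-sample columns in the authors' tables, identical to the counts, were not used. The day-12 over day-6 FGF2 contrast and the comparison of numbers were added after seeing the data, and the members and lists were chosen with earlier results of these data known. Not every gene of these lists is reported here.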

Additional observations from a re-analysis of the deposited data

How the results depend on the processing

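Called members kept their direction in every alternative tried. Day-12 over day-6 calls in controls numbered 21, and 19 to 23 with DESeq2, its size factors, library totals, no low-count filter or the replicate block, and 17 to 23 leaving out 1 library; with FGF2 they numbered 23, and 21 to 24, and 19 to 25. No member was called for late FGF2 or for the difference of effects in any alternative. Early FGF2 gave 0 calls in each alternative that kept all 8 libraries. Without day-6 FGF2 replicate 1 that group held 1 library, and the changes from that fit are given above as effect sizes only. The comparison of numbers gave 3 calls, 5 without a low-count filter, 1 in the FGF2 libraries alone and 1 to 4 leaving out 1 library. At day 11 the 3 members past 4-fold became 0 with library totals and 0 with the authors' normalized values; the day-5 uninduced count of 1 became 0 with the authors' normalized values. The cause was not tested. Same-numbered libraries were compared in their deviations from group means. They correlated by 0.0042 to 0.0982 over all genes and 0.00998 to 0.43 over the 47 tested members. The titles repeat both numbers in each FGF2-set group, but the labels do not say what the numbers mean. With the replicate block 22 members were called in the control day contrast and 0 for either FGF2 effect. Members under the low-count filter, 6 of 53, have no test, and 2 libraries a group limit what can be called.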
